A study of Rattus norvegicus with 6 samples.

Results

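MicroRNA precursor genes were taken from the transcript table of rat lung as the annotated transcripts whose gene symbol began with Mir followed by a digit or by let. The rule gave 274 precursors with 273 symbols, because Mir466d was listed at 2 places, out of 70376 transcripts, of which 28875 were annotated and the others assembled from the reads. Each of the 274 was a single exon of 59 to 141 bases, with a median of 90, and they lay on 21 chromosomes. The lungs came from Sprague-Dawley rats that were 7 weeks old at the start. In the pulmonary fibrosis (PF) model group, 3 rats received 1 dose of bleomycin at 7 mg/kg into the trachea, and 3 control rats received the same volume of saline. All 6 were killed on day 28, and 1 rRNA-depleted total RNA library was made from the lung of each rat. Bleomycin injures the alveolar epithelium and is the usual agent for this model, and a whole lung holds many cell types, so that fewer cells of a type and less RNA per cell cannot be told apart in the values below. The lung markers were at high levels in all 6 libraries, with a summed level between 9862.8 and 12872.8 FPKM for the 5 of 6 lung epithelium markers that had a row. The list of fibrosis and matrix genes summed to 368 to 433 FPKM in control and 417 to 564 FPKM in model libraries, so that the groups overlapped. Within the list, Col3a1 was at 174, 178 and 154 FPKM in control and 189, 204 and 233 FPKM in model libraries, without overlap. At each other gene of the list the groups overlapped, and Spp1 was at most 0.361 FPKM in every library. The authors saw fibrous nodules in Masson-stained lung sections of the model group.

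A miRNA is transcribed as part of a longer primary transcript, which may be the intron of a host gene or a transcript of its own. Drosha with Dgcr8 cuts the hairpin precursor out of the primary transcript in the nucleus, Xpo5 exports it, and Dicer1 cuts it into the mature miRNA that is loaded on an Argonaute protein. Bases 2 to 8 of the mature miRNA, the seed, pair with target mRNAs, so that miRNAs with the same seed can act on the same targets. The libraries described here were not size-selected for small RNA, and the values at a hairpin are read coverage of the locus, not levels of the mature miRNA. They were sequenced in pairs of 150 bases, so that a full-length read counted at a hairpin extends beyond it.

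The mature sequences of the precursors that carried most of the signal are shown first, with the seed in capitals, read 5′ to 3′ from RefSeq (GRCr8) by gene symbol. Of the 273 symbols, 252 were matched, and 220 of 235 hairpins with a sequence (93.6%) had the length listed in the table. The precursors held 339 different seeds, and 34 of these were shared by 2 or more precursors, which together made up 81 precursors. Mir27a and Mir27b share the seed of their 3p arm, and their 3p mature forms are identical at 20 of 21 bases, as are the 3p forms of Mir23a and Mir23b.
rno-miR-27a-3p: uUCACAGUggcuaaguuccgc
rno-miR-27b-3p: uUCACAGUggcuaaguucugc
rno-miR-23a-3p: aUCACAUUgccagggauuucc
rno-miR-23b-3p: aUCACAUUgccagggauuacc
rno-miR-24-3p: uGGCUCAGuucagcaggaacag
rno-miR-142-5p: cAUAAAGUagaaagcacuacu
rno-miR-142-3p: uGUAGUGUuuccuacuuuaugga
rno-miR-3064-3p: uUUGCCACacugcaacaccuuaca

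A second set belongs to the precursors that differed between the groups at an unadjusted p of at most 0.05, with Mir497, the neighbour of Mir195, and other members of its seed family added for comparison. The first 5 sequences share 1 seed, that of the miR-15 and miR-16 family. The seed of let-7a was held by 9 precursors, that of miR-148b by 3 and that of miR-28-5p by 2.
rno-miR-195-5p: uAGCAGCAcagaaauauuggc
rno-miR-497-5p: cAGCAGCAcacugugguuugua
rno-miR-16-5p: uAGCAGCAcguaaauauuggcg
rno-miR-15b-5p: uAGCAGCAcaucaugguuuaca
rno-miR-322-5p: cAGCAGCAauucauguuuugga
rno-let-7a-5p: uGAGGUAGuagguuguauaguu
rno-miR-148b-3p: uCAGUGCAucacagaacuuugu
rno-miR-28-5p: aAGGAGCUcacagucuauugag
rno-miR-28-3p: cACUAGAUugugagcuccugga
rno-miR-421-3p: aUCAACAGacauuaauuggg
rno-miR-877: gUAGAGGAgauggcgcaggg
rno-miR-1843b-5p: aUGGAGGUcucugucugacuuag
rno-miR-1843b-3p: uCUGAUCGuuccccuccauac

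Signal, meaning any value above 0, was listed at every precursor with a row in at least 1 library, but most of it was thin. In all, 138 precursors were above 0 FPKM (fragments mapped to a transcript, scaled to its length and to the library size) in all 6 libraries, 72 in 3 to 5 libraries and 64 in 1 or 2, among them 43 in a single library. The median of the mean level was 0.209 FPKM, which corresponded to a mean coverage of 1.42 reads at each base. Only 48 precursors had a mean of at least 1 FPKM and 4 a mean of at least 10, whereas 93 stayed below 0.1. Values above 0 could be far too small for 1 whole read. Mir3084a was at 1e-06, 0 and 1e-06 FPKM in control and 0, 0 and 0.00149 FPKM in model libraries. It counted as above 0 in each library with such a value and so entered the fit described below. Coverage was at least 1 in all 6 libraries for 77 precursors and below 1 in all 6 for 46. In a given library 1 FPKM equalled a coverage of 6.39 to 7.33, the same for each precursor in it, so that both columns carry the same information within a library.

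The number of precursors with signal overlapped between the groups. Control libraries had 187, 203 and 200 precursors above 0 and model libraries 200, 217 and 194 (exact permutation test, two-sided, p = 0.6, n = 3 per group, smallest possible p = 0.1). The summed precursor level was 312, 337 and 392 FPKM in control and 358, 383 and 250 FPKM in model libraries. The mean of the model was 4.72% lower, less than the SD of either group (347 ± 40.9 against 330 ± 70.5 FPKM, SD, exact permutation p = 0.8). Model library 3 had the lowest sum of the 6, and it was also the lowest of all libraries at 19 of the 48 precursors with a mean of at least 1 FPKM. Without that library the model mean was 6.84% higher than the control mean (exact permutation p = 0.5). In the same library the 7 cardiac muscle markers summed to 30.7 FPKM, against 6.76 to 11.9 FPKM in the other libraries, and the part of this in the precursor values was not tested.

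**Figure D1:**
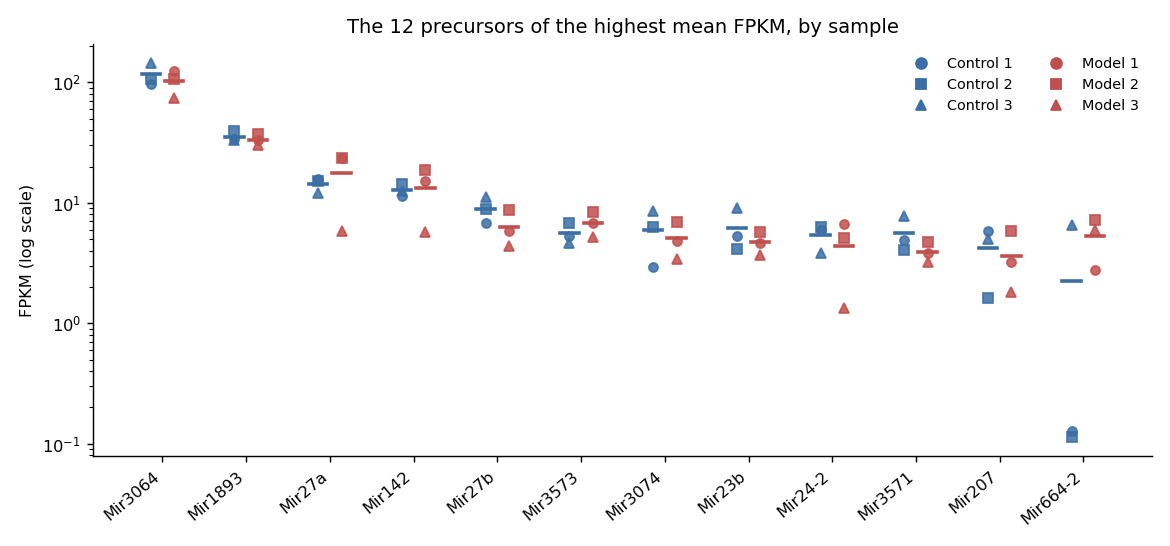
FPKM on a log scale for the 12 precursors of the highest mean level, with 1 point per library and a bar for the group mean. Mir3064 lay between 74.5 and 145 FPKM in all 6 libraries, and Mir664-2 was near 0.1 FPKM in control libraries 1 and 2 only.

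A few precursors made up most of the summed level. Mir3064 (chr10:94982051-94982117, minus strand, in the coordinates of the table, whose genome build is not given in the sources used here) took 28% to 37.1% of the sum of each library, and the top 10 precursors took 58.2% to 64.1%. Mir3064 lies within the span of Ddx5, an RNA helicase that works with Drosha, on the same strand. Its level was 97.3, 106 and 145 FPKM in control and 123, 107 and 74.5 FPKM in model libraries. The groups overlapped, with a log2 difference of -0.20 ± 0.25 (SE). The summed level of all Ddx5 transcripts was 81.7, 94.0 and 84.8 FPKM in control and 82.2, 60.5 and 84.1 FPKM in model libraries, so that the mean of the hairpin was 1.34 times that of its host gene. Against the average over Ddx5 transcripts weighted by length, with a mean of 34.6 FPKM over the libraries, the ratio was 3.15. The hairpin of Mir3064 is shown with the listed mature arm in capitals.
Mir3064: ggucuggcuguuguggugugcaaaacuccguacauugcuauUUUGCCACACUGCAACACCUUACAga

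Mir1893 was the second highest, at 34.0, 39.5 and 32.9 FPKM in control and 33.3, 37.0 and 30.2 FPKM in model libraries. It lies in Epc1, a subunit of the NuA4 histone acetyltransferase complex, and its libraries were close to each other, with SDs of 3.55 and 3.43 FPKM. Epc1 itself summed to 25.8 to 29.4 FPKM, and the hairpin was at 1.27 times the host. Mir142, the precursor of a miRNA pair known from blood cells, lay outside any transcript of known strand. It was at 11.4, 14.4 and 12.5 FPKM in control and 15.1, 18.6 and 5.74 FPKM in model libraries, so that model libraries held both the highest and the lowest value. Mir3573, in the ephrin gene Efnb1, had 5.32, 6.81 and 4.65 FPKM in control and 6.81, 8.38 and 5.18 FPKM in model libraries, and the groups overlapped. Mir207, in the co-chaperone gene Dnaja1, ranged from 1.62 to 5.85 FPKM over the libraries of both groups.

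The precursors were grouped by the transcripts around them. By the coordinates of the table, 103 precursors lay inside an annotated gene on the same strand, 32 only inside an assembled transcript on the same strand, 24 only opposite to a transcript, and 115 in no transcript of known strand. Transcripts listed without a strand were not counted in this grouping, and they may span some of the 115. Precursors inside annotated genes had signal in all 6 libraries in 65 of 103 cases (63.1%), and they carried 63.1% of the summed mean level. Of the 213 FPKM summed over this class, Mir3064 alone had 109 FPKM, and Mir1893 was the next highest. That share therefore rests largely on single precursors and is not a trait of the class. Signal in all 6 was found at 33 of 115 (28.7%) in no transcript of known strand and at 14 of 24 (58.3%) only opposite to a transcript. The median level was 0.283 FPKM inside annotated genes, 0.178 FPKM for the 115 in no transcript of known strand and 0.618 FPKM for the 24 on the other strand only. A mean of at least 1 FPKM was found for 19 of the 103 (18.4%), 17 of the 115 (14.8%) and 8 of the 24 (33.3%). The 32 inside assembled transcripts were above 0 in all 6 libraries most often (26 of 32, 81.2%) and yet had the lowest median, 0.0818 FPKM. Mir21, whose miRNA is well known in fibroblasts, belongs to them, in an assembled transcript of Vmp1. It was listed at 0.0957, 0.118 and 0.115 FPKM in control and 0.105, 0.133 and 0.0941 FPKM in model libraries, below a coverage of 1 in every library.

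**Figure D2:**
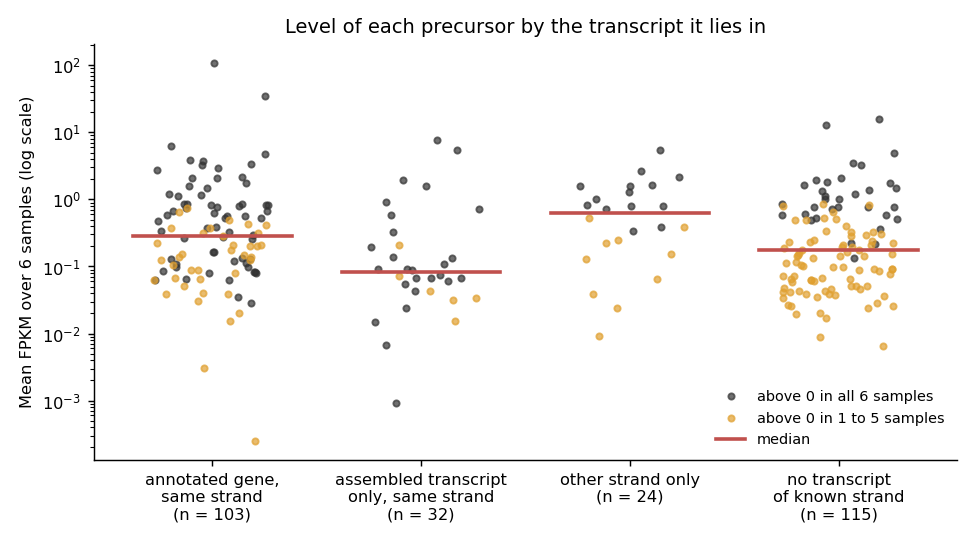
Mean FPKM over 6 libraries (log scale) for each of the 274 precursors, grouped by the transcript each lies in. Black points are above 0 in all 6 libraries, orange points in 1 to 5, and the red line is the median, which is lowest, at 0.0818 FPKM, for the 32 inside assembled transcripts only.

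By the sum over all their transcripts, host genes were mostly far above their precursors. This sum grows with the number of transcripts, and for Mir3064 the ratio was 1.34 by sum and 3.15 by the average weighted by length. Over the 103 precursors inside annotated genes, the median ratio of precursor to host was 0.0554, and 6 precursors were above their host. Across these precursors, which share the same libraries, the mean levels of precursor and host had a Spearman correlation of 0.283, given as a description. In addition to Mir3064 and Mir1893, the precursors above their host were Mir1224 in Vwa5b2, Mir3552 in Htr2c, Mir208b in Myh7 and Mir935 in Cacng8, all at a mean below 0.6 FPKM and named after their values were seen. Of 120 annotated host transcripts, 113 were tested and 5 were called by the rule used below for precursors. Mapk9 transcripts were higher in the model in both cases that passed, and 1 of them was at 0.0103, 0.378 and 0.00804 FPKM in control against 0.885, 0.644 and 1.30 FPKM in model libraries. A Dnm3 transcript was at 2.44, 1.74 and 1.16 FPKM in control and 0.640, 0.802 and 0.798 FPKM in model libraries. The remaining calls were a Srebf2 transcript, higher in the model, and a Stpg1 transcript, lower in it. The Srebf2 transcript was near 0 throughout, at 0.0004, 0.0126 and 0.000656 FPKM in control and 0.204, 0.0917 and 0.123 FPKM in model libraries. The Stpg1 transcript was at 0.814, 1.06 and 1.28 FPKM in control and 0.230, 0.516 and 0 FPKM in model libraries. These 5 are 4.42% of those tested, and 2.98% of all transcripts were called by that rule.

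Neighbouring precursors are often cut from 1 primary transcript. With gaps of at most 10000 bases on the same strand, 89 precursors fell into 36 clusters, the largest of 6. Mir23a, Mir27a and Mir24-2 span 389 bases of chromosome 19 (chr19:25318582-25318970, plus strand), with no transcript of known strand across them. Mir27a was at 15.6, 15.1 and 12.05 FPKM in control and at 23.7, 23.7 and 5.78 FPKM in model libraries. Mir23a was at 2.56, 2.83 and 2.96 FPKM in control and at 5.06, 4.93 and 1.003 FPKM in model libraries. At both, model libraries 1 and 2 were above all controls and model library 3 below all of them. Mir24-2 was at 5.95, 6.35 and 3.83 FPKM in control and at 6.72, 5.14 and 1.35 FPKM in model libraries, with model library 1 above and model library 3 below all controls. The 3 precursors summed to 22.4 ± 3.10 FPKM in control and 25.8 ± 15.3 FPKM in model libraries (exact permutation p = 0.8, n = 3 per group).

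The difference at Mir27a depended on a single library. With all 6 libraries its log2 difference was 0.08 ± 0.53 (SE, limma, adjusted p = 0.994 by Benjamini-Hochberg), and without model library 3 it was 0.70 ± 0.13 (adjusted p = 0.617), past an unadjusted p of 0.05. Mir23a moved in the same way without that library, to 0.67 ± 0.12 (limma, adjusted p = 0.545). The hairpins of Mir27a and Mir27b are shown with both mature arms in capitals, the 5′ arm first.
Mir27a: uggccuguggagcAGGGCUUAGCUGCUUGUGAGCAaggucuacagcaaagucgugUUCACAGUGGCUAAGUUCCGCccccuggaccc
Mir27b: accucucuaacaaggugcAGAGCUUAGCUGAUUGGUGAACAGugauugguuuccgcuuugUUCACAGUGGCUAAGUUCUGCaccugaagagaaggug

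Mir23b and Mir27b, the paralogous pair, lie 336 bases end to end at chr17:823222-823557 on the plus strand, inside an assembled transcript of Npepo. Mir27b was at 6.75, 8.80 and 11.2 FPKM in control and 5.79, 8.67 and 4.37 FPKM in model libraries. Mir23b was at 5.25, 4.15 and 9.04 FPKM in control and 4.62, 5.77 and 3.68 FPKM in model libraries. The pair summed to 15.1 ± 4.51 FPKM in control and 10.97 ± 3.23 FPKM in model libraries, and the groups overlapped (exact permutation p = 0.3). For the seed shared by Mir27a and Mir27b, the sum over both was 22.4, 23.9 and 23.3 FPKM in control and 29.5, 32.3 and 10.2 FPKM in model libraries. Again the model libraries lay on either side of the controls.

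**Figure D3:**
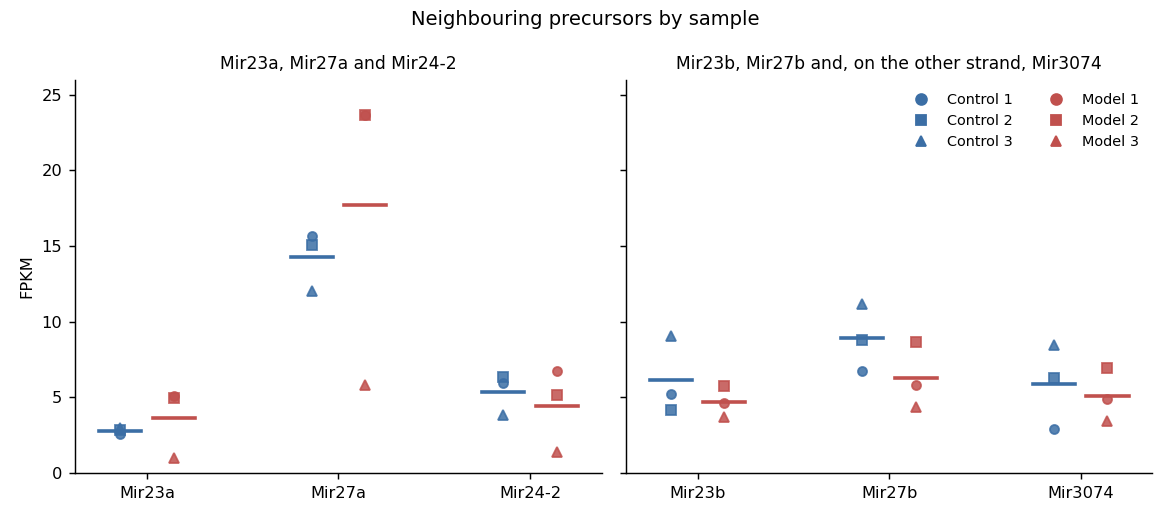
FPKM of neighbouring precursors, 1 point per library and a bar for the group mean. At Mir23a and Mir27a, model libraries 1 and 2 lie above the controls and model library 3 below them, and at Mir23b and Mir27b the groups overlap.

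The remaining clusters were lower. The cluster of Mir17, Mir18a, Mir19a, Mir20a, Mir19b1 and Mir92a1, known for its role in cell growth, spans 785 bases of chromosome 15 and summed to 2.67, 6.05 and 4.92 FPKM in control and 4.78, 3.77 and 2.48 FPKM in model libraries. Within it Mir19a was the highest, at 1.16 to 2.09 FPKM, and Mir19b1 the lowest, with at most 0.118 FPKM. Mir497 and Mir195 summed to 3.62, 3.38 and 5.19 FPKM in control and 3.02, 3.43 and 1.28 FPKM in model libraries. Of the 36 clusters, 2 had groups that did not overlap (5.56%, against 10.4% of all transcripts), and both were lower in the model, that of Mir25, Mir93 and Mir106b and that of Mir99a and Mirlet7c1. They are named for this, after their values were seen, and the former was at 1.62, 1.62 and 1.69 FPKM in control and 1.20, 1.56 and 1.22 FPKM in model libraries (exact permutation p = 0.1, the smallest possible).

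Precursors were then compared between the groups with limma on log2(FPKM + 1), fitted on all 64867 transcripts above 0 in at least 3 of 6 libraries. Among the 274 precursors, 210 entered this fit and 64 did not. A precursor was called where the unadjusted p was at most 0.05 and the group means differed by at least 1 on the log2 scale. By this rule 8 of the 210 were called (3.81%), with 2.98% of all transcripts called. Of these, 4 were higher in the model (1.90%, against 1.22% of all transcripts) and 4 lower (1.90%, against 1.76%). At an unadjusted p of at most 0.05 alone, 12 precursors passed (5.71%), against 4.53% of all transcripts, with 6 higher (1.88% of all transcripts) and 6 lower (2.65% of all transcripts). With Benjamini-Hochberg adjustment in limma 0 precursors passed 0.05 (lowest adjusted p = 0.770), and 0.0277% of all transcripts passed that threshold. The median log2 difference over the precursors was -0.01, against -0.02 over all transcripts, with 96 above and 114 below 0.

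Leaving out model library 3 raised the number called from 8 to 19 and the number with an unadjusted p of at most 0.05 from 12 to 22. Of those 22, 9 were among the 12 of the full comparison, 14 were higher and 8 lower in the model, and with adjustment limma called 0 of them. Over all transcripts, 3.25% were called and 4.49% had a p of at most 0.05 without that library.

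**Figure D4:**
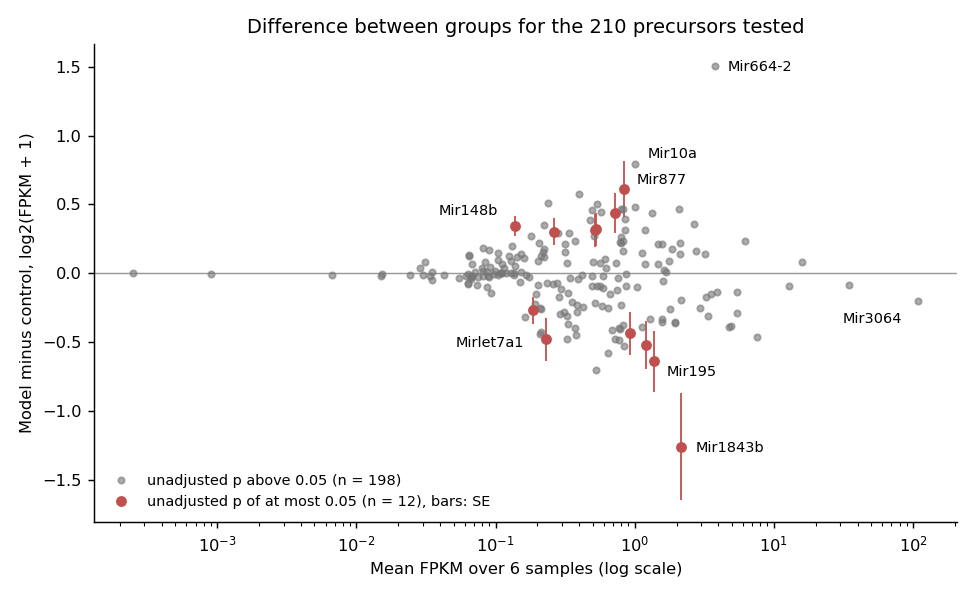
Difference between PF model and control on the log2(FPKM + 1) scale against mean FPKM (log scale) for the 210 precursors tested. Red points are the 12 with an unadjusted p of at most 0.05, with bars for the SE, and Mir664-2 has the largest difference, 1.51, without passing that threshold.

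Of the 12 precursors, Mir1843b had the largest fall on the log2(FPKM + 1) scale, while by the ratio of group means Mirlet7a1 and Mir295-1 fell further. Mir1843b (chr13:77065446-77065507, plus strand) lies in Cop1, a ubiquitin ligase gene. It was at 3.41, 2.39 and 4.28 FPKM in control and 1.89, 0.812 and 0.102 FPKM in model libraries. All controls lay above all model libraries, and the level on the log2(FPKM + 1) scale fell by 1.26 ± 0.39 (SE, limma, adjusted p = 0.945). Its 62 bases also lie wholly within RF00565, an annotated small RNA of 140 bases on the same strand, which was at 1.02, 0.687 and 1.47 FPKM in control and 0.743, 0.0878 and 1.43 FPKM in model libraries. Spread over the 140 bases, the 2 rows together gave 2.54, 1.74 and 3.36 FPKM in control and 1.58, 0.447 and 1.48 FPKM in model libraries, so that the groups did not overlap either way. How reads were split between the 2 rows is uncertain. Cop1 as a whole summed to 16.4 to 23.5 FPKM in control and 16.9 to 18.5 FPKM in model libraries.

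Mir195 was the other called precursor with a mean above 1 FPKM. Together with Mir497 it lies on chromosome 10 (chr10:56845301-56845387, plus strand), and its miRNA belongs to the family that restrains the cell cycle. It was at 2.18, 1.43 and 2.07 FPKM in control and 1.13, 0.449 and 1.04 FPKM in model libraries, with no overlap. Its level fell by 0.64 ± 0.22 on the log2(FPKM + 1) scale (limma, adjusted p = 0.945). Mir497, upstream on the same strand, was at 1.44, 1.95 and 3.11 FPKM in control and 1.88, 2.98 and 0.246 FPKM in model libraries, so that its groups overlapped. Over the 5 precursors of this seed the sum was 3.69, 3.64 and 5.36 FPKM in control and 3.63, 3.46 and 1.29 FPKM in model libraries, where the lowest control and the highest model library nearly touched. Of the 34 shared seeds, 4 had groups that did not overlap (11.8%, against 10.4% of all transcripts), this one lower in the model and 3 higher, namely those of Mir28 with Mir708, of Mir148a, Mir148b and Mir152, and of Mir101a with Mir101-2. Mir15b, Mir16 and Mir322 contributed little, with means of 0.125, 0.0632 and 0.00664 FPKM.

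The other precursors called lower were Mirlet7a1 and Mir295-1. Mirlet7a1, of the let-7 family that rises with differentiation, was at 0.651, 0.552 and 0.116 FPKM in control and at 0, 0.0561 and 0 FPKM in model libraries (limma, adjusted p = 0.945). Mirlet7d, which lies in the same cluster on chromosome 17, was at 1.69, 1.09 and 1.33 FPKM in control and 2.49, 1.58 and 0.672 FPKM in model libraries, without that pattern. Mir295-1 belongs to a cluster known from embryonic stem cells and was at 0.288, 0.270 and 0.323 FPKM in control and at 0, 0 and 0.237 FPKM in model libraries (limma, adjusted p = 0.945). The 6 precursors of its cluster together were at 0.305, 0.337 and 0.772 FPKM in control and 0.480, 0.809 and 2.17 FPKM in model libraries, with a higher mean in the model and overlapping groups.

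Among the 4 called higher, Mir148b had the smallest p. It lies in the coat protein gene Copz1 and was listed at 0 in all 3 control libraries, against 0.335, 0.344 and 0.145 FPKM in model libraries (limma, adjusted p = 0.770). Its coverage was at most 2.43 in any library, and Copz1 lay between 20.1 and 23.6 FPKM in all 6. Mir877, known as a mirtron (a hairpin released by splicing) of Abcf1, was at 0.496, 0.600 and 0.257 FPKM in control and 1.51, 1.48 and 0.719 FPKM in model libraries, and Abcf1 was at 9.38 to 10.7 FPKM. Its level rose by 0.61 ± 0.20 on the log2(FPKM + 1) scale (limma, adjusted p = 0.945). Mir28, inside an assembled transcript of Lpp, was at 0.719, 0.375 and 0.316 FPKM in control and 1.03, 0.883 and 1.02 FPKM in model libraries (limma, adjusted p = 0.945). Mir3594, in Cep131, was at 0.223, 0.156 and 0.0174 FPKM in control and 0.482, 0.419 and 0.285 FPKM in model libraries (limma, adjusted p = 0.945).

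A further 4 precursors had an unadjusted p of at most 0.05 with a smaller ratio. Mir421 was at 1.496, 1.30 and 2.01 FPKM in control and 0.654, 0.785 and 0.993 FPKM in model libraries, a log2 ratio of means of -0.98, just short of the call (limma, adjusted p = 0.945). Mir1956, in an assembled transcript of Eif4e, was lower too, at 1.14 to 1.25 FPKM in control and 0.380 to 0.805 FPKM in model libraries. Mir3569 and Mir3558 were higher, the former at 0.288 to 0.393 against 0.562 to 0.925 FPKM and the latter at 0.200 to 0.491 against 0.567 to 0.779 FPKM. Of the 12 precursors, 9 had a mean below 1 FPKM, and 11 had a mean coverage below 10. In all 12 the groups did not overlap (exact permutation p = 0.1, the smallest possible with 3 against 3), which held for 16 of the 210 tested (7.62%), compared with 10.4% of all transcripts. Most of these results depended on single libraries. Mir148b alone kept an unadjusted p of at most 0.05 whichever of the 6 libraries was left out. With 0 in all 3 controls, Mir148b entered the fit only through the model libraries, and leaving out a control could not change its direction. Its stability is therefore no separate support. Mir1843b lost an unadjusted p of at most 0.05 without control library 1 or 3. Mir195 lost it without control library 1, control library 3 or model library 2, as well as with TPM or with coverage. Mir3594 lost it in 3 of the 6 cases, Mir877, Mir28, Mirlet7a1, Mir421, Mir3569 and Mir3558 in 4, and Mir295-1 and Mir1956 in 5, in each case with the same direction.

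**Figure D5:**
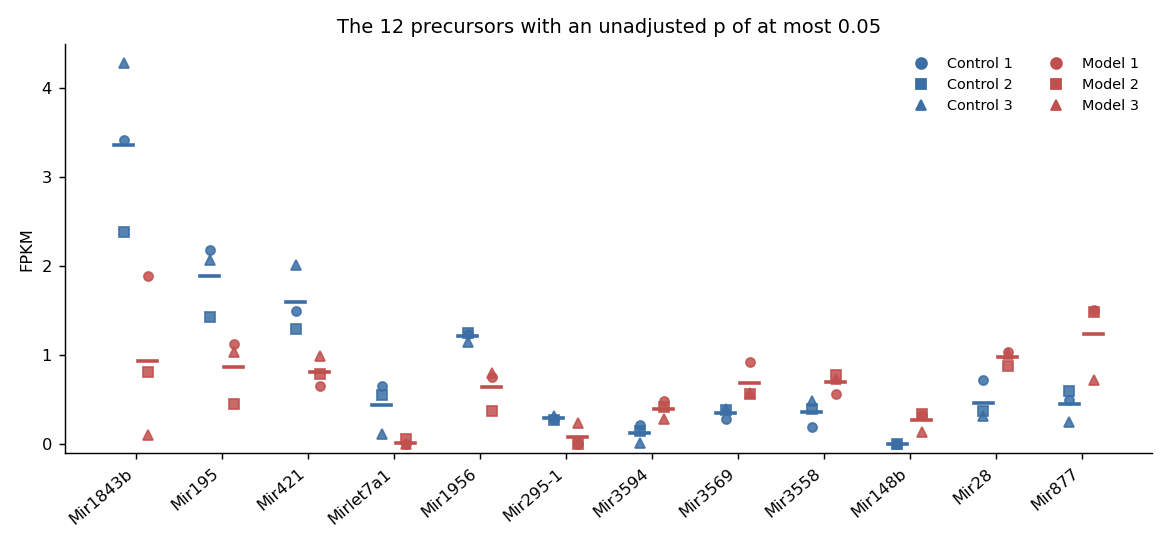
FPKM of the 12 precursors with an unadjusted p of at most 0.05, ordered by their difference on the log2(FPKM + 1) scale, with 1 point per library and a bar for the group mean. The groups do not overlap at any of them, and Mir148b is listed at 0 in all 3 controls.

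Among precursors with a mean of at least 1 FPKM, no rise in the model reached an unadjusted p of 0.05. Mir664-2, in Rab3gap2, was at 0.127, 0.113 and 6.53 FPKM in control and 2.76, 7.24 and 5.98 FPKM in model libraries (log2 difference 1.51 ± 0.82, limma, adjusted p = 0.945). Control library 3 lay among the model libraries, and without it the difference was 2.42 and passed an unadjusted p of 0.05. Its 59 bases lie within RF00340, an annotated small RNA on the same strand, which was at 4.36, 3.18 and 3.39 FPKM in control and 1.48, 3.51 and 3.35 FPKM in model libraries. Spread over the 132 bases of RF00340, both rows together gave 4.42, 3.23 and 6.31 FPKM in control and 2.71, 6.75 and 6.03 FPKM in model libraries, and the groups overlapped. Mir3593, Mir10a and Mir343 had log2 differences of 0.48 ± 0.25, 0.79 ± 0.45 and 0.31 ± 0.18, each with an adjusted p of 0.945 in limma. Without model library 1 Mir10a reached 1.18, and without model library 3 Mir3593 reached 0.70, and both then passed an unadjusted p of 0.05. In the downward direction Mir27b followed Mir1843b, Mir421 and Mir195, with -0.46 ± 0.27 (limma, adjusted p = 0.945). Without model library 2 it was at -0.69 and passed the unadjusted threshold.

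A list of 46 miRNA names known from lung fibrosis, muscle, blood or endothelium gave 36 precursors under 35 of the names. Of these, 28 were tested, none had an unadjusted p of at most 0.05 in limma (4.53% of all transcripts did), 0 had an adjusted p below 0.05 (0.945 for Mir223, the nearest), and none had groups that did not overlap (10.4% of all transcripts). Their mean levels had a median of 0.212 FPKM, against 0.209 FPKM for all 274, with 5 of 36 at a mean of at least 1 FPKM and 12 below 0.1. The 5 were Mir142, Mir26a, Mir19a, Mir429 and Mirlet7d. Mir26a, in Ctdspl, was at 3.52, 1.55 and 2.72 FPKM in control and 2.32, 2.72 and 3.85 FPKM in model libraries. Mir429, of the epithelial miR-200 family, was at 1.92, 1.92 and 1.02 FPKM in control and 1.90, 2.04 and 0.747 FPKM in model libraries.

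Many other names of the list were at low levels or were listed at 0 in some libraries. Mir223, whose miRNA is abundant in myeloid cells, was at 0, 0.498 and 0.714 FPKM in control and at 0, 0.0577 and 0 FPKM in model libraries. Mir34c was at 0.512, 0.199 and 2.33 FPKM in control, and at 0.825, 0 and 0 FPKM in model libraries. Mir146b was at 0.304, 0.382 and 0.518 FPKM in control and 0, 1.51 and 0.290 FPKM in model libraries. The precursors above 0 in 1 library only were 7, namely Mir155, Mir126a, Mir144, Mir194-2, Mir29b1, Mir208b and Mir499a. The row named Mir126a, counted here for the listed Mir126, carries rno-miR-126b by RefSeq, while the miR-126a arms lie on its other strand under a gene with no row. Of the 7, Mir208b was found in model library 3 alone, at 0.523 FPKM. Its host Myh7, a cardiac myosin, was at 0.407 FPKM in that library, 0.0173 FPKM in model library 2 and 0 in the others, and the related cardiac myosin gene Myh6 was at 5.11 FPKM there, 0.0339 FPKM in model library 2 and 0 in the others.

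For 11 of the 46 names no row was found, and 7 of these are genes whose opposite strand is listed under another name. By RefSeq, the hairpin of 27 precursors of the table holds, on the other strand, the mature miRNA of a second gene annotated at the same place. In none of the 27 was the second gene listed, and no precursor of the table overlapped another. The 7 pairs are Mir3571 opposite to Mir1, Mir3582 opposite to Mir133a1, Mir3556a opposite to Mir29a, Mir3575 opposite to Mir200c, Mir3548 opposite to Mir200a, Mir3120 opposite to Mir214 and Mir3574 opposite to Mir210. Among the 27, 13 were above 0 in all 6 libraries, 5 had a mean of at least 1 FPKM, and the median of their mean levels was 0.327 FPKM. The 2 highest hairpins are shown with the stretch that is the reverse complement of miR-24-3p in Mir3074, and of the muscle miRNA miR-1-3p in Mir3571, in capitals.
Mir3074: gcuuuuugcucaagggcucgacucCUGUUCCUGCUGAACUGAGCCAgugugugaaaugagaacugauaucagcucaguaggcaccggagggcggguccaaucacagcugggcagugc
Mir3571: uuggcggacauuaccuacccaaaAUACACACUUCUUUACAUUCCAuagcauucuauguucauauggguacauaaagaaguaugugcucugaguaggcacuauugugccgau
rno-miR-24-3p: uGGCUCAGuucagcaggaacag
rno-miR-1-3p: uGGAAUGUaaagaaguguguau

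Mir3074 lies next to Mir27b on the other strand of chromosome 17 (chr17:823940-824056). It was at 2.91, 6.27 and 8.49 FPKM in control and 4.86, 6.92 and 3.41 FPKM in model libraries, and the groups overlapped. Mir3571 and Mir3582 both lie in Mib1, a ubiquitin ligase of the Notch pathway, on its strand. Mir3571 was at 4.91, 4.09 and 7.77 FPKM in control and 3.82, 4.74 and 3.23 FPKM in model libraries, and Mib1 summed to 26.4 to 29.9 FPKM in control and 16.9 to 27.0 FPKM in model libraries. Mir3582 was at 3.99, 3.66 and 3.78 FPKM in control and 3.33, 3.72 and 1.85 FPKM in model libraries, with 1 model library inside the control range. The labels name a stranded library kit, but 11775 of 16860 single-exon assembled transcripts (69.8%) carried no strand in the table. Whether strand was used in quantification is not given in the sources used here, so that the strand from which the reads of these precursors came is uncertain.

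Some assembled transcripts took the name of a precursor. There were 43 such transcripts under 24 precursor names, and for 8 names a transcript ran across the hairpin on its strand. For the other names none did, and that of Mir181b1, for example, lay 1544 bases away. Whether any of the 43 is a primary transcript was not tested. Mir143, known from smooth muscle with its neighbour Mir145, is 1 of the 8. Its 8 assembled transcripts summed to 7.06, 8.33 and 4.41 FPKM in control and 14.2, 5.91 and 6.60 FPKM in model libraries, while the hairpin itself was listed at 0.0537 to 0.0826 FPKM. For Mirlet7c2 the 7 assembled transcripts summed to 6.60, 14.1 and 9.07 FPKM in control and 11.7, 9.49 and 12.7 FPKM in model libraries. In both cases the groups overlapped, and the level of the hairpin row is not the level of the transcript across it.

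Of 42 assembled transcripts tested, 2 had an unadjusted p of at most 0.05 (4.76%, against 4.53% of all transcripts), and both were higher in the model. A transcript of 3458 bases that begins 13 bases past the hairpin of Mir146b was called. It was at 0.000973, 0.106 and 0.159 FPKM in control and 1.87, 0.431 and 0.911 FPKM in model libraries, with no overlap (log2 difference 0.87 ± 0.26, limma, adjusted p = 0.945). The miRNA miR-146b is known to rise with inflammatory signalling, and at the hairpin itself the groups overlapped. A transcript across Mirlet7c2 was at 3.43, 3.78 and 3.58 FPKM in control and 5.87, 4.52 and 5.58 FPKM in model libraries (log2 difference 0.45 ± 0.12, limma, adjusted p = 0.945).

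Few back-splice reads, which join a later exon end to an earlier start, spanned a precursor. Of 5216 circRNAs, 14 spanned 10 precursors in 9 host genes, with 33 back-splice reads in all. The highest had 12 reads, across Mir128-1 in R3hdm1, with 1, 4 and 2 reads in control and 2, 0 and 3 reads in model libraries.

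The genes that process miRNAs were compared as gene levels, each the average over its transcripts weighted by length and not their sum. Of 25 genes on the list, 22 had a row, and no one of them was called, whereas 1.75% of all genes tested were. At an unadjusted p of at most 0.05, 1 of the 22 passed (4.55%, against 4.35% of all genes). That gene was Ddx6, an RNA helicase of mRNA silencing, at 2.23, 2.14 and 2.76 FPKM in control and 3.69, 3.33 and 3.99 FPKM in model libraries (log2 difference 0.47 ± 0.10, limma, adjusted p = 0.949). Dgcr8 was at 6.41 ± 0.115 FPKM in control and 6.38 ± 0.154 FPKM in model libraries, Drosha at 3.65 ± 0.125 and 3.52 ± 0.494, and Dicer1 at 2.50 ± 0.0600 and 2.37 ± 0.0887 FPKM (SD, n = 3 per group). Among the 22, the groups did not overlap in 3 cases, Ddx6, Tnrc6b and Ago4 (13.6%, against 10.1% of all genes). Ago4, an Argonaute, was lower, with 1.03 to 1.21 FPKM in control and 0.876 to 0.942 FPKM in model libraries (limma, adjusted p = 0.949).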

How the data were processed

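Lung RNA of 3 control and 3 PF model rats was measured with 1 library per rat, grouped by the sample labels. For linear transcripts, the authors used Cutadapt for trimming and Bowtie2 with Tophat2 for mapping (HISAT2, StringTie and TopHat are named in the submitters' processing notes); they assembled and merged transcripts with StringTie, and deposited FPKM values from StringTie and Ballgown. The authors also deposited the coverage signal, the mean number of reads per base, not scaled for library size. Back-splice read counts were deposited by the authors for circRNAs from Tophat-fusion and CIRCexplorer. Genome build and versions are not given in the sources used here. No table of reads per transcript was used, so the precision of FPKM comes from the replicates and the coverage.

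From these files, log2(FPKM + 1) of 64867 transcripts above 0 in at least 3 samples was fitted with limma 3.58.1 (trend, two-sided, Benjamini-Hochberg adjustment over all transcripts, R 4.3.3), checked on simulated data. The limma p-values set the difference between groups against the spread between libraries of a group, moderated over all transcripts. With 1 library per rat, spread between rats and between libraries cannot be told apart. Gene levels were fitted in the same way on 20421 genes. A call was p of at most 0.05 with a log2 ratio of group means of at least 1. Single values per library were compared by exact permutation. Host genes, neighbours and overlaps came from the coordinates of the table, and sequences from RefSeq (GRCr8) by symbol. Named precursors were the 12 highest, those called, the 4 of smallest p in each direction at a mean of at least 1 FPKM, and those of a list of 46 names. Members and lists were chosen with earlier results of these data known. Alternatives were a pseudocount of 0.1, other filters, TPM, coverage, annotated transcripts only, no trend, a replicate block and leaving out each library.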

Additional observations from a re-analysis of the deposited data

How the results depend on the processing

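With a mean FPKM of at least 1 required, which left 48 precursors, 2 were called and 3 had an unadjusted p of at most 0.05. Leaving out 1 library at a time gave 8 to 19 precursors called, 8 to 22 with an unadjusted p of at most 0.05, and 4 to 10 host transcripts called. The highest precursor counts came without model library 3, and host counts rose from 5 to 9 without control library 1 and to 10 without model library 1. Among these settings, the share over all transcripts was taken only without model library 3 (3.25% called). The other counts in this section have no such share beside them and are not results about precursors or hosts. With TPM the difference in the summed precursor level was 0.213% instead of -4.72%, and leaving out 1 library gave -12.3% to 6.84%, above 0 without control library 3 or model library 3. Under the other settings the counts of calls were within 1.5 times those reported, and no precursor had an adjusted p below 0.05 in limma under any setting.

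Same-numbered control and model libraries did not deviate together (correlations of 0.00848, 0.0497 and -0.0416). With a replicate block 10 precursors and 5 host transcripts were called, 12 precursors had an unadjusted p of at most 0.05, and 10 of those 12 were among the 12 without the block. The share over all transcripts with the block was not taken.

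For 28 precursors (the 12 highest, the 12 with an unadjusted p of at most 0.05, the smallest p values in each direction, and Mir23a), 308 of 383 results under other settings kept direction and side of that threshold, 55 lost it, 6 gained it and 14 turned the direction. Directions turned at precursors in the list for their level and at Mir23a, all with an unadjusted p above 0.05 in the full comparison. Precursors picked for a small p turn less easily, so the pattern says nothing about level itself. Leaving out 1 library gave log2 differences of -0.35 to 0.0062 for Mir3064, -0.23 to 0.70 for Mir27a, -0.13 to 0.67 for Mir23a, -0.39 to 0.38 for Mir142, -0.50 to 0.14 for Mir3074, -0.72 to 0.13 for Mir24-2 and -0.57 to 0.17 for Mir207, and with TPM Mir1893 was at 0.0019. The cause was not tested. Mir148b kept its direction and an unadjusted p of at most 0.05 under every setting run for it. The fit that required a mean of at least 1 FPKM did not include it. Since it was at 0 in all controls and entered the fit only through the model libraries, this is no separate support. Coverage limits what can be seen, since only 77 of 274 precursors had a coverage of at least 1 in all 6 libraries.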
